A study of Mus musculus with 10 samples.

Results

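Collagen genes were examined in lens epithelia of wild-type (WT) mice and of transgenic mice from the lines OVE853 and OVE918. A member was any gene of the count table whose symbol has the form of a collagen alpha chain, that is Col, a number, a and a number, and 44 of the 50763 genes met this rule. They comprise 11 fibrillar collagens, 9 collagens of basement membranes, 9 FACIT collagens, 4 transmembrane collagens and 11 others, which include the bead-forming and network-forming types VI, VIII and X. Both lines carry a transgene for constitutively active human TGF-β1 under the lens-specific αA-crystallin promoter on the FVB/N strain background, and the study's methods describe the sampled mice of both lines as having anterior subcapsular cataract plaques. All mice were 3 weeks old. RNA was taken from whole explants of the lens epithelium, in 3 WT and 3 OVE853 pools of up to 9 mice each and 4 OVE918 pools of up to 7 mice each, so that a replicate is a pool and the plaque was not separated from the epithelium around it. WT mice lacked the transgene, and no other treatment was given in any group.

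A collagen is built of 3 alpha chains wound into a triple helix. Fibrillar collagens form banded fibers, and those of types V and XI regulate how fibers of types I and II begin and how thick they grow. FACIT collagens sit on the surface of such fibers, transmembrane collagens are anchored in the plasma membrane, and type IV collagen forms the sheet-like network of basement membranes. The lens capsule is an unusually thick basement membrane that the lens epithelium lays down itself, and it lies next to the zonule fibers and ciliary epithelium at the lens equator. Fibrillar collagen in a cataract plaque is a known mark of lens epithelial cells that have turned into matrix-producing, fibroblast-like cells.

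Total counts on genes were 24073311 to 28645174 in WT, 27409730 to 31908525 in OVE853 and 25342220 to 28562553 in OVE918. Counts assigned to Tgfb1 were 50.6, 61.7 and 50.7 CPM (counts scaled to the size of the library) in WT, 338.7 to 361.3 CPM in OVE853 and 715.4 to 880.7 CPM in OVE918, so all 7 libraries labelled as transgenic lay above the WT libraries. Lens epithelium markers, among them Foxe3, Pax6 and Cryaa, summed to 104492 CPM or more in every library. Most of this sum came from Cryaa and Cryab, with at least 76869 and 25277 CPM. Foxe3 had 424.3 to 836.2 CPM and Pax6 had 356.4 to 473.3 CPM. Lens fiber markers summed to 5703 to 13960 CPM in WT, 10721 to 14546 CPM in OVE853 and 12914.5 to 15135 CPM in OVE918. WT replicate 3 and OVE918 replicate 4 stood apart from the other libraries of their groups on the first principal components. In WT replicate 3, 10 markers of retinal neurons and photoreceptors summed to 349.6 CPM, against 22.5 to 93.7 CPM in the other libraries, and values without this library are given where leaving it out changed a call or a direction or moved a called value by more than 1.5 times. Of 9 markers of stromal fibroblasts and keratocytes, Kera had 0 CPM in all 10 libraries and Lum, Dpt, Pi16 and Dcn reached at most 0.436, 0.179, 0.581 and 2.35 CPM. The list as a whole summed to 894.5 to 1147 CPM in WT, 1026 to 1067 CPM in OVE853 and 537.7 to 735.3 CPM in OVE918, most of it from Pdgfra, Pdgfrb and Fbln1, and its part in the results was not tested. Markers of endothelium and macrophages are given beside the elevated genes.

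Levels are given as FPKM, counts scaled to the size of the library and the exon length of the gene, which allows genes of different length to be compared. Collagen genes took 1.34% to 2.93% of the counts in WT, 2.54% to 2.84% in OVE853 and 1.38% to 2.48% in OVE918. Col4a1 and Col4a2, the chains of the ubiquitous type IV network, made up 76.1% to 82.1% of the collagen FPKM of a library, and all 6 type IV genes made up 87.4% to 96.7%. The basement membrane class summed to a median of 3668 FPKM in WT (range 1841 to 4383), 3667 FPKM in OVE853 (range 3390 to 3757) and 2546 FPKM in OVE918 (range 2246 to 3520). The basement membrane class was thus the most abundant in every library of all 3 groups.

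The other classes were small and moved in different directions. FACIT collagens took 3.68% to 5.31% of the collagen FPKM in WT, 2.14% to 2.38% in OVE853 and 0.746% to 1.68% in OVE918. Fibrillar collagens took 1.07% to 1.48% in WT, 1.66% to 2.16% in OVE853 and 1.02% to 2.51% in OVE918. Transmembrane collagens summed to 22.3 to 36.6 FPKM in WT, 6.61 to 9.38 FPKM in OVE853 and 2.88 to 4.91 FPKM in OVE918. The FACIT and transmembrane sums therefore did not overlap between any of the 3 groups, whereas the fibrillar sums of WT, at 30.3 to 68.8 FPKM, overlapped both those of OVE853, at 65.8 to 84.6 FPKM, and those of OVE918, at 36.9 to 59.7 FPKM. Other collagens summed to 27.0 to 34.2 FPKM in WT, 57.5 to 71.0 FPKM in OVE853 and 38.7 to 50.4 FPKM in OVE918.

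**Figure D1:**
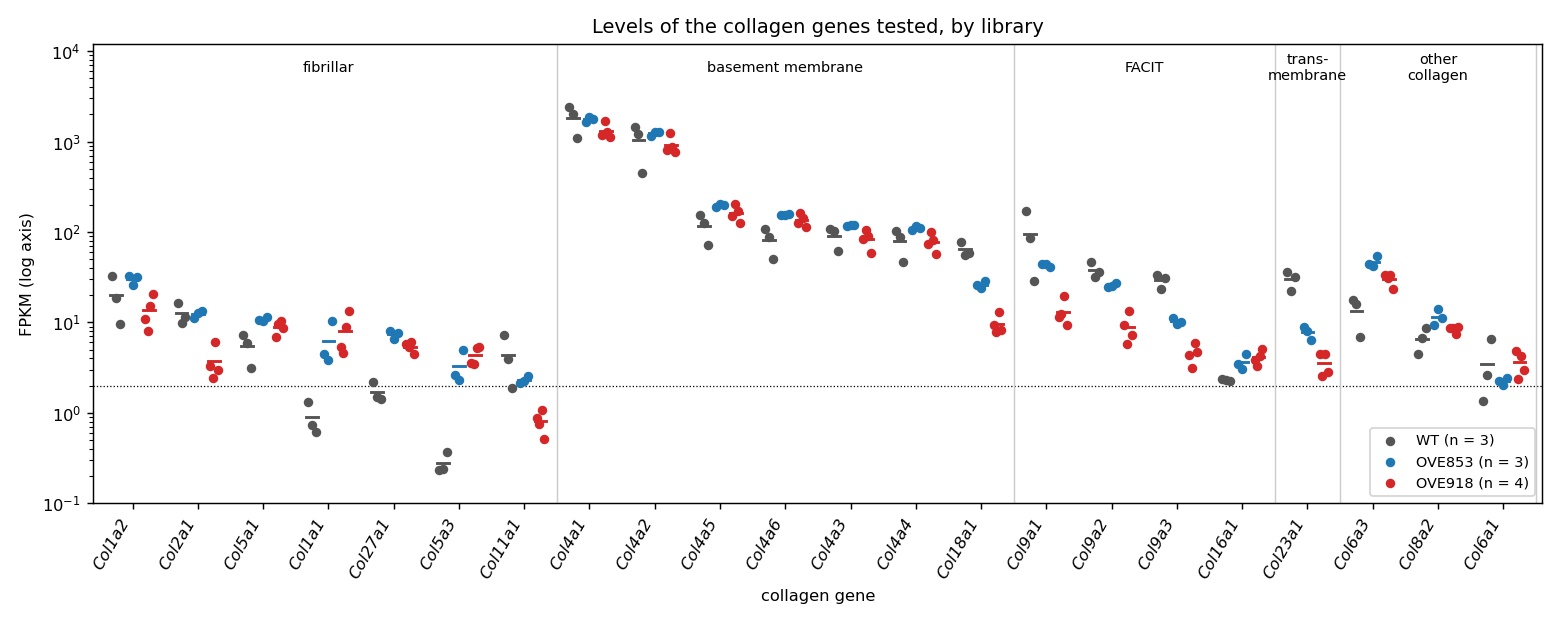
FPKM (log axis) of the 22 collagen genes that entered the tests, in each library of WT (n = 3), OVE853 (n = 3) and OVE918 (n = 4), grouped by class and ordered by mean level. Points are libraries, short bars are group means and the dotted line marks 2 FPKM. A gene had to reach this level in 5 libraries, before TMM scaling, to be tested. Col4a1 and Col4a2 lie at 449 FPKM or above in every library, while Col1a1 and Col5a3 lie under the line in every WT library.

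Type IV collagen showed the highest levels and small differences between groups. Col4a1 had 2388, 2005 and 1102 FPKM in WT, 1639, 1849 and 1780 FPKM in OVE853 and 1181, 1701, 1274 and 1119 FPKM in OVE918. Its rank among the 11094 genes tested ran from 12 to 39 over the 10 libraries, from the highest level down. Col4a2 had 1442, 1202 and 449 FPKM in WT, 1164, 1288 and 1270 FPKM in OVE853 and 814, 1240, 881 and 764 FPKM in OVE918. For both genes WT replicate 3 was the lowest WT library and the 3 OVE853 libraries lay within the WT range. The log2 fold change of Col4a1 was -0.06 ± 0.25 (SE) in OVE853 and -0.47 ± 0.24 in OVE918, with a false discovery rate (FDR, from the quasi-likelihood test of edgeR) of 0.882 and 0.189. For Col4a2 the log2 fold changes were 0.27 ± 0.35 and -0.16 ± 0.32, with an FDR of 0.610 and 0.778. Without WT replicate 3 the values for OVE853 and OVE918 were -0.32 (FDR 0.299) and -0.74 (FDR 0.0135) for Col4a1 and -0.09 (FDR 0.803) and -0.52 (FDR 0.0916) for Col4a2, so that Col4a1 then met the FDR limit in OVE918 but not a 2-fold change, and Col4a2 in OVE853 changed sign.

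The type IV genes lie in head-to-head pairs. On GRCm39, Col4a1 (chr8:11248423-11362826, minus strand) and Col4a2 (chr8:11362471-11499287, plus strand) point away from each other and their annotated starts overlap by 318 bases, while those of Col4a4 and Col4a3 on chromosome 1 overlap by 104 bases. Col4a6 and Col4a5 on the X chromosome are separated by 1281 bases. The overlaps above use the starts of the GENCODE annotation, whereas the RefSeq windows below are set from another start for Col4a2. The promoter windows of the first pair are printed because both genes of the most abundant collagen are read from the same short stretch of DNA. They are RefSeq windows on GRCm38.p6, from 250 bases before to 50 after the start, for Col4a1 at chr8:11312777-11313076 on the minus strand and for Col4a2 at chr8:11312555-11312854 on the plus strand, and the capitals mark the 78 bases that both windows hold, each read 5′ to 3′ on its own strand:
Col4a1: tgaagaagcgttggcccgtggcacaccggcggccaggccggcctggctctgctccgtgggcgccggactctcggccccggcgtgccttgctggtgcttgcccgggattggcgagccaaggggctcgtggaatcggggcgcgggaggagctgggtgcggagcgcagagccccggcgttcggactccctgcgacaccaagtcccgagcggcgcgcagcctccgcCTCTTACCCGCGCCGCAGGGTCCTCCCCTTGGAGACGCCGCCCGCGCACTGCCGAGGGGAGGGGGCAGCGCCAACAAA
Col4a2: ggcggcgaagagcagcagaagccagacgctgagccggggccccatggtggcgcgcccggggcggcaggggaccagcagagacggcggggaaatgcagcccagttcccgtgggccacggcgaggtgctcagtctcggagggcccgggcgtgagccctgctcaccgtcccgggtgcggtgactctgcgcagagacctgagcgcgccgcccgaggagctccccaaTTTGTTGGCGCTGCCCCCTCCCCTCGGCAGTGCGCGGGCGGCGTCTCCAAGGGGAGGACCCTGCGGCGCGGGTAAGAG

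The ratio of Col4a1 to Col4a2 in FPKM was 1.66 to 2.46 in WT, 1.40 to 1.44 in OVE853 and 1.37 to 1.46 in OVE918. WT replicate 3, the library with the lowest Col4a2 level, had the highest ratio, and without it the WT ratios of 1.66 and 1.67 still lay above both lines. Reads were counted by strand, so a read from the overlapping starts can be assigned to one gene of the pair.

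The chains that are restricted to few basement membranes had a lower level than the ubiquitous ones and a different balance between groups. Col4a3 had 109, 103 and 62.3 FPKM in WT, 115, 118 and 121 FPKM in OVE853 and 82.6, 105, 90.0 and 58.7 FPKM in OVE918. Its partner Col4a4 had 103, 87.8 and 46.1 FPKM in WT, 105, 116 and 110 FPKM in OVE853 and 73.8, 98.8, 82.2 and 57.8 FPKM in OVE918. For both chains every OVE853 library lay above every WT library by a small margin and OVE918 overlapped WT. Log2 fold changes in OVE853 were 0.37 ± 0.23 for Col4a3 (FDR 0.270) and 0.49 ± 0.27 for Col4a4 (FDR 0.219), and in OVE918 they were -0.12 ± 0.21 (FDR 0.746) and -0.01 ± 0.25 (FDR 0.977).

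Col4a5, which assembles with either of the other restricted sets, had 154, 126 and 71.7 FPKM in WT, 187, 205 and 199 FPKM in OVE853 and 152, 205, 170 and 124 FPKM in OVE918. Its log2 fold change was 0.75 ± 0.25 (FDR 0.0677) for OVE853 and 0.47 ± 0.24 (FDR 0.192) for OVE918. Col4a6 had 108, 88.5 and 50.8 FPKM in WT, 153, 155 and 158 FPKM in OVE853 and 125, 161, 142 and 113 FPKM in OVE918, so that every library of both lines lay above WT. This gene met the FDR limit of 0.05 in OVE853 (log2 fold change 0.92 ± 0.23, FDR 0.0242) and in OVE918 (0.71 ± 0.22, FDR 0.0438) but not the 2-fold minimum for a differentially expressed gene (DEG). Without WT replicate 1 the Col4a6 value in OVE853 was 1.16, past both limits.

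Summed over the 4 restricted chains, the FPKM relative to the sum of Col4a1 and Col4a2 was 0.124 to 0.149 in WT, 0.189 to 0.20 in OVE853 and 0.188 to 0.225 in OVE918. Both lines lay above all WT libraries, by a mean of 1.46-fold in OVE853 and 1.55-fold in OVE918. In a two-sided exact permutation test this gave p = 0.10 and p = 0.0571, the smallest values that 3 against 3 and 4 against 3 libraries allow. It was 1 of 26 comparisons over 13 chain ratios, of which 0 passed after Benjamini-Hochberg adjustment (smallest adjusted p 0.137 by exact permutation), and a design of this size could not have passed.

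**Figure D2:**
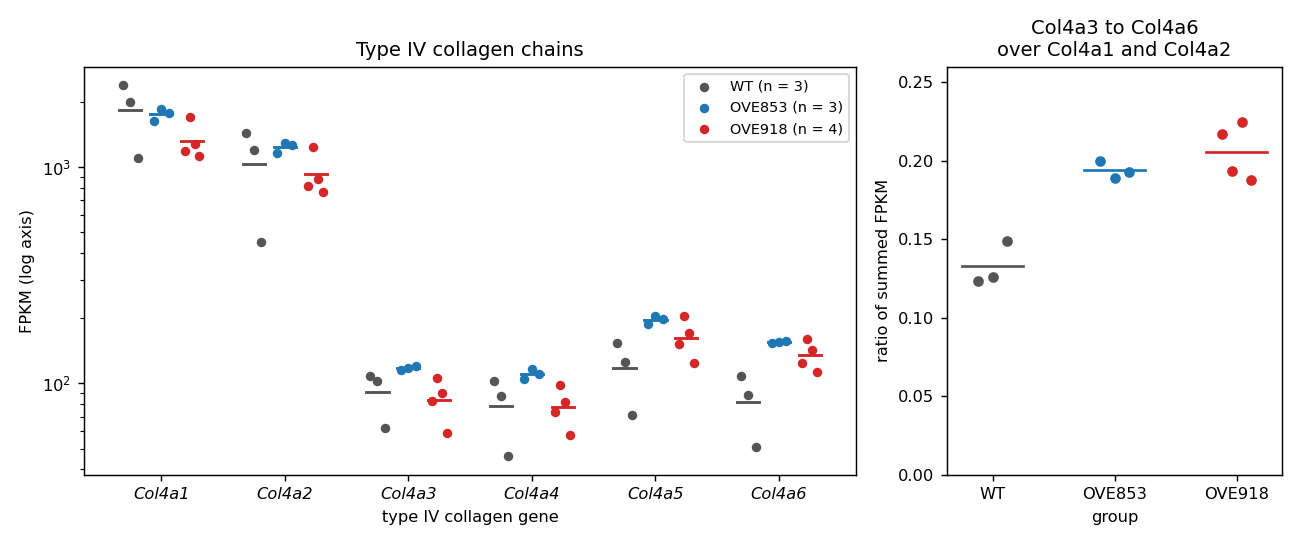
Left, FPKM (log axis) of the 6 type IV collagen genes in each library; right, the summed FPKM of Col4a3 to Col4a6 divided by that of Col4a1 and Col4a2. Points are libraries (WT n = 3, OVE853 n = 3, OVE918 n = 4) and bars are group means. The ratio lies between 0.124 and 0.149 in WT and at 0.188 or above in both lines.

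Not all members could be tested. To enter the fit a gene needed 2 FPKM or more in 5 libraries. For this filter FPKM used total counts, without the TMM normalization factors that scale the printed levels. The minimum was reached by 22 of the 44 collagen genes and 11094 genes in all, and 17 of the 22 reached 2 FPKM in every library. The exceptions are Col1a1 and Col5a3, under 2 FPKM in all 3 WT libraries, Col27a1, under it in 2 WT libraries, Col11a1, under it in all OVE918 libraries and WT replicate 3, and Col6a1. Col1a1, Col5a3 and, in part, Col27a1 therefore entered the test through the transgenic libraries, and Col11a1 through WT and OVE853 libraries. A count over the tested members thus does not stand for all 44.

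In OVE853, 5 collagen genes were elevated and 3 were reduced relative to WT, where a DEG had to pass an FDR of 0.05 and change at least 2-fold. Among all genes tested, 2.51% were elevated and 1.91% were reduced in that comparison. In OVE918, 4 collagen genes were elevated and 7 were reduced, against 2.58% and 3.01% of all genes. The elevated genes were Col1a1, Col5a3, Col27a1 and Col6a3 in both lines and Col5a1 in OVE853 alone by the threshold. The reduced genes were Col18a1, Col23a1 and Col9a3 in both lines, with Col9a1, Col9a2, Col2a1 and Col11a1 past the threshold in OVE918. Both comparisons share the WT libraries. The median log2 fold change of the 22 collagen genes was 0.43 in OVE853 and -0.07 in OVE918, beside -0.01 and 0.01 over all genes. Libraries did not overlap for 11 collagen genes that were higher and 4 that were lower in OVE853, against 23.4% and 22.0% of all genes, and for 6 and 7 in OVE918, against 12.3% and 15.0%.

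**Figure D3:**
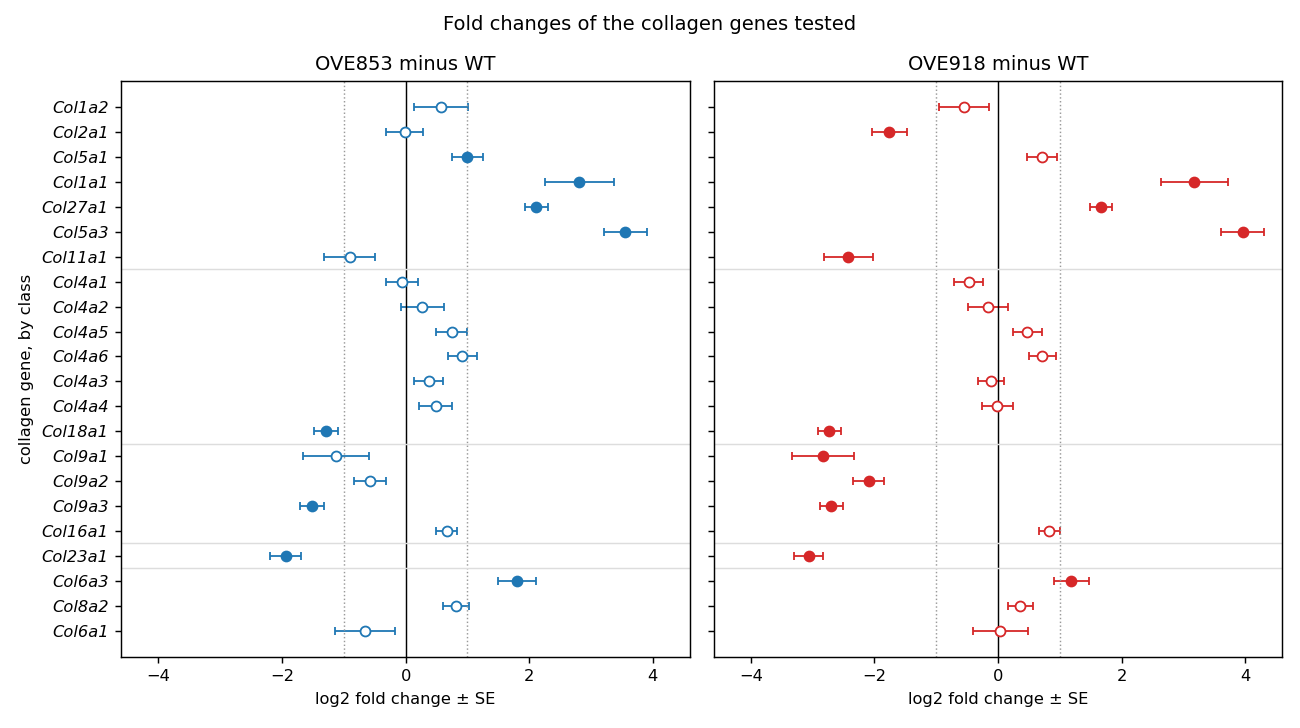
Log2 fold change relative to WT, with its SE, of the 22 collagen genes tested, in OVE853 (left) and OVE918 (right), from the same fit and with the same WT libraries. Filled points passed both limits for a DEG, open points did not, dotted lines mark a 2-fold change and gray lines separate the classes. Col5a3, at 3.55 and 3.96, is the most elevated of these 22 genes in each line and Col23a1, at -1.94 and -3.07, the most reduced.

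Fibrillar collagens held most of the elevated genes. Col1a1, the chain present in 2 copies in each type I collagen molecule (chr11:94827050-94843868 on GRCm39, plus strand), had 1.33, 0.727 and 0.615 FPKM in WT, 4.50, 3.8 and 10.2 FPKM in OVE853 and 5.28, 4.55, 8.79 and 13.4 FPKM in OVE918. All libraries of both lines lay above WT, and OVE853 replicate 3 and OVE918 replicate 4 were the highest of their groups. Its log2 fold change was 2.81 ± 0.56 (FDR 0.0121) for OVE853 and 3.18 ± 0.55 (FDR 0.00396) for OVE918. Pools of whole epithelium do not separate more RNA per cell from more cells of a kind, and this holds for every gene described here.

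Its partner did not follow. Col1a2, which supplies the other chain of type I collagen, had 32.5, 18.4 and 9.64 FPKM in WT, 32.2, 25.7 and 31.7 FPKM in OVE853 and 10.9, 8.05, 15.1 and 20.8 FPKM in OVE918. The WT libraries alone spanned more than a 3-fold range and overlapped both lines. Log2 fold changes were 0.57 ± 0.44 in OVE853 (FDR 0.384) and -0.55 ± 0.41 in OVE918 (FDR 0.386). Col1a1 relative to Col1a2 was 0.0395 to 0.0638 in WT, 0.140 to 0.323 in OVE853 and 0.484 to 0.643 in OVE918, so the 3 groups did not overlap in this ratio, yet Col1a1 stayed below Col1a2 in each of the 10 libraries. The two-sided exact permutation test gave p = 0.10 and p = 0.0571 against WT, again the smallest values possible. Col3a1, which often accompanies type I collagen in connective tissue, reached at most 0.644 FPKM in any library and was not tested.

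Type V collagen chains differed in size of change. Col5a3 (chr9:20681337-20726418, minus strand) had 0.231, 0.236 and 0.369 FPKM in WT, 2.61, 2.33 and 5.00 FPKM in OVE853 and 3.53, 3.45, 5.25 and 5.31 FPKM in OVE918. The lowest transgenic library lay above the highest WT library by more than 6-fold. Its log2 fold change was 3.55 ± 0.35 (FDR 1.45e-04) for OVE853 and 3.96 ± 0.35 (FDR 3.57e-05) for OVE918. Col5a1 (chr2:27776397-27929526, plus strand), the chain found in most type V molecules, had 7.28, 5.85 and 3.15 FPKM in WT, 10.7, 10.4 and 11.5 FPKM in OVE853 and 6.81, 9.64, 10.3 and 8.65 FPKM in OVE918. It was a DEG in OVE853 at the very limit of size (log2 fold change 1.00 ± 0.25, FDR 0.0261) and not in OVE918 (0.71 ± 0.24, FDR 0.0645), and 1 OVE918 library lay within the WT range. Without WT replicate 3 the OVE853 value of Col5a1 was 0.72 (FDR 0.0178), under the 2-fold minimum, and without WT replicate 2 or any one OVE853 library it missed the FDR limit. The third chain, Col5a2, stayed under 2 FPKM in all libraries and is described with the low members.

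Col27a1, a fibrillar collagen known from developing cartilage and several epithelia (chr4:63132241-63253228, plus strand), had 2.21, 1.5 and 1.41 FPKM in WT, 8.08, 6.49 and 7.60 FPKM in OVE853 and 5.78, 5.28, 6.05 and 4.47 FPKM in OVE918. The groups did not overlap and the spread within each was narrow. Its log2 fold change was 2.12 ± 0.18 (FDR 4.87e-05) for OVE853 and 1.66 ± 0.17 (FDR 7.98e-05) for OVE918.

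Some markers of other cell types were also higher in the lines. The 8 macrophage markers summed to 17.7 to 43.4 CPM in WT, 35.1 to 54.5 CPM in OVE853 and 25.6 to 70.6 CPM in OVE918. C1qa, a complement gene of macrophages, had 3.46 to 9.68 CPM in WT, 13.1 to 17.3 CPM in OVE853 and 8.16 to 23.1 CPM in OVE918 and was a DEG in OVE918 (log2 fold change 1.35 ± 0.41, FDR 0.0446), whereas Mrc1 was lower in every transgenic library (at most 0.461 CPM) than in WT (at least 1.54 CPM). The 8 endothelial markers summed to 56.3 to 140.1 CPM in WT, 43.2 to 58.5 CPM in OVE853 and 49.3 to 69.7 CPM in OVE918, and the highest sum came from 112.8 CPM of Kdr in WT replicate 3. Within this list Cdh5 had 0.281 to 1.70 CPM in WT and 3.41 to 7.25 CPM in the transgenic libraries, Pecam1 had 0.386 to 1.61 and 1.37 to 4.98 CPM, and Cldn5 had 0.877 to 2.06 and 1.33 to 9.37 CPM, with Cldn5 a DEG in OVE918 (2.01 ± 0.59, FDR 0.0385). Cldn5 reached 2 FPKM in 0 WT libraries and so entered the test through the transgenic libraries, where it was higher. Cdh5 and Pecam1 did not enter the test. Kdr was lower in every transgenic library (5.36 to 14.1 CPM) than in WT (15.2 to 112.8 CPM) but was not a DEG. Egfl7 overlapped, with 25.2 to 37.5 CPM in WT and 25.6 to 39.9 CPM in the transgenic libraries. The part of macrophages and endothelial cells in the rise of Col1a1, Col5a3, Col27a1, Col5a1 and Col6a3 was not tested.

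**Figure D4:**
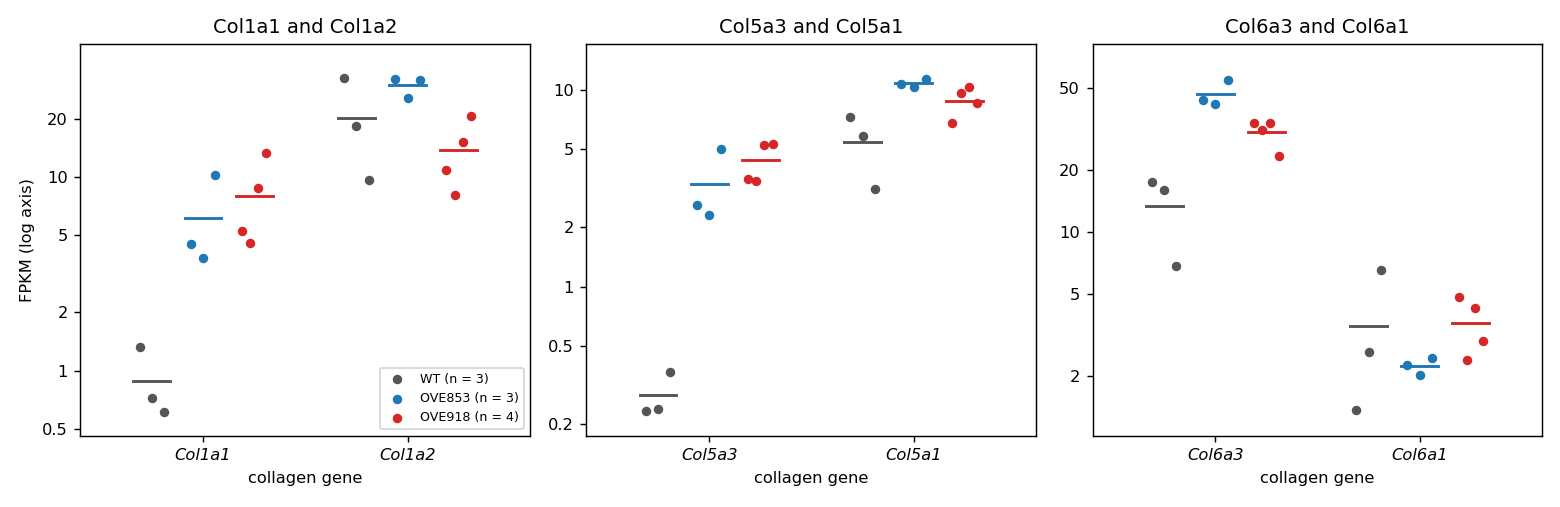
FPKM (log axis, a different range in each panel) of chains that join in types I, V and VI collagen: Col1a1 with Col1a2, Col5a3 with Col5a1 and Col6a3 with Col6a1. Points are libraries (WT n = 3, OVE853 n = 3, OVE918 n = 4) and bars are group means. Col1a1, Col5a3 and Col6a3 lie above WT in all libraries of both lines, while Col1a2 and Col6a1 overlap WT.

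Type VI collagen, which forms beaded microfibrils around basement membranes, changed unevenly over its chains. Col6a3 (chr1:90693645-90771780, minus strand), its largest chain, had 17.5, 15.96 and 6.81 FPKM in WT, 43.9, 41.9 and 54.6 FPKM in OVE853 and 33.8, 31.1, 33.7 and 23.4 FPKM in OVE918. It was elevated in OVE853 (log2 fold change 1.80 ± 0.30, FDR 0.00348) and in OVE918 (1.19 ± 0.28, FDR 0.0150), with no overlap with WT. Without WT replicate 3, the lowest WT library, the OVE918 value of Col6a3 was 0.87 (FDR 0.00492), under the 2-fold minimum.

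Col6a1 showed another order, with 1.36, 2.62 and 6.53 FPKM in WT, 2.25, 2.02 and 2.45 FPKM in OVE853 and 4.85, 2.38, 4.28 and 2.95 FPKM in OVE918. WT replicate 3 was the highest library, and the log2 fold changes of -0.65 ± 0.48 (FDR 0.362) and 0.04 ± 0.45 (FDR 0.965) did not pass. Without WT replicate 3 the Col6a1 values were 0.16 (FDR 0.791) and 0.85 (FDR 0.101), so that the sign in OVE853 changed. Col6a2 had 2.89, 5.87 and 10.7 FPKM in WT and 1.06 to 1.82 FPKM in all 7 transgenic libraries, so that it missed the FPKM minimum through the groups in which it was low. The 3 chains thus stood in different order between groups, since Col6a1 relative to Col6a2 was 0.446 to 0.608 in WT, 1.35 to 1.64 in OVE853 and 2.00 to 3.40 in OVE918.

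Type VIII collagen forms hexagonal lattices in some specialized basement membranes of the eye. Col8a2 had 4.44, 6.70 and 8.62 FPKM in WT, 9.45, 14.2 and 11.2 FPKM in OVE853 and 8.78, 8.72, 7.44 and 8.90 FPKM in OVE918. It met the FDR limit in OVE853 (log2 fold change 0.82 ± 0.22, FDR 0.0295) and not in OVE918 (0.36 ± 0.20, FDR 0.248), and without WT replicate 3 the OVE853 value of Col8a2 was 1.06, past both limits. Col8a1 lay between 0.249 and 1.98 FPKM over all libraries and was not tested. Col16a1, the tested FACIT collagen that did not share the fall of type IX, had 2.35, 2.31 and 2.25 FPKM in WT, 3.45, 3.06 and 4.44 FPKM in OVE853 and 3.86, 3.26, 4.21 and 5.08 FPKM in OVE918. Its log2 fold changes of 0.66 ± 0.17 (FDR 0.0266) and 0.83 ± 0.16 (FDR 0.00486) met the FDR limit but not the 2-fold minimum. By the FDR alone, 8 collagen genes were higher in OVE853, against 8.10% of all genes, and 6 in OVE918, against 8.00%.

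Reduced genes came from the basement membrane, FACIT, transmembrane and fibrillar classes. Col18a1, a basement membrane collagen and the source of the fragment endostatin (chr10:76888012-77002390, minus strand), had 78.3, 55.5 and 58.7 FPKM in WT, 25.6, 24.3 and 28.8 FPKM in OVE853 and 9.40, 7.89, 13.0 and 8.28 FPKM in OVE918. The 3 groups were fully separate. Its log2 fold change was -1.29 ± 0.19 (FDR 0.00168) for OVE853 and -2.73 ± 0.18 (FDR 5.27e-06) for OVE918. Among the 7 basement membrane genes tested it was the single DEG in each line.

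Col23a1, a transmembrane collagen that can be shed from the cell surface (chr11:51180566-51474745, plus strand), had 36.2, 22.1 and 31.96 FPKM in WT, 8.97, 8.13 and 6.40 FPKM in OVE853 and 4.51, 2.58, 4.45 and 2.81 FPKM in OVE918. The groups did not overlap. The log2 fold change of -1.94 ± 0.25 in OVE853 (FDR 8.19e-04) and -3.07 ± 0.24 in OVE918 (FDR 1.65e-05) made it the most reduced of the 22 collagen genes tested in both lines. The other 3 transmembrane genes, Col13a1, Col17a1 and Col25a1, reached at most 0.227, 0.251 and 0.381 FPKM.

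Type IX collagen, a FACIT collagen of vitreous and cartilage fibers, needs 3 different chains. Col9a1 (chr1:24216691-24291765, plus strand) had 169, 84.9 and 29.0 FPKM in WT, 44.1, 44.3 and 41.1 FPKM in OVE853 and 11.4, 12.4, 19.8 and 9.31 FPKM in OVE918. WT replicate 3 lay below all OVE853 libraries, so WT and OVE853 overlapped, while OVE918 lay below both. The log2 fold change of Col9a1 was -1.13 ± 0.53 (FDR 0.168) for OVE853 and -2.83 ± 0.50 (FDR 0.00459) for OVE918, and without WT replicate 3 the OVE853 value was -1.56 (FDR 0.0120), past both limits. Without WT replicate 1, its highest library, the Col9a1 values were -0.40 (FDR 0.502) in OVE853 and -2.11 (FDR 0.00654) in OVE918.

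Col9a2 (chr4:120896582-120912523, plus strand) had 47.2, 31.7 and 36.3 FPKM in WT, 24.5, 25.5 and 27.0 FPKM in OVE853 and 9.39, 5.72, 13.5 and 7.30 FPKM in OVE918, with no overlap between groups. It was reduced in OVE918 (log2 fold change -2.09 ± 0.25, FDR 2.53e-04) and did not pass in OVE853 (-0.58 ± 0.26, FDR 0.146). Col9a3 (chr2:180239583-180264063, plus strand) had 33.6, 23.7 and 30.7 FPKM in WT, 11.2, 9.53 and 10.1 FPKM in OVE853 and 4.40, 3.13, 5.85 and 4.70 FPKM in OVE918. It was reduced in OVE853 (-1.51 ± 0.20, FDR 7.19e-04) and in OVE918 (-2.70 ± 0.19, FDR 6.10e-06). In OVE918 all 3 chains of type IX fell together, whereas in OVE853 only Col9a3 passed with all libraries in the fit.

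The fibrillar collagens that accompany type IX in vitreous and cartilage were reduced in OVE918. Col2a1 (chr15:97873483-97902689, minus strand), the type II chain, had 16.3, 9.96 and 11.5 FPKM in WT, 11.2, 12.6 and 13.4 FPKM in OVE853 and 3.31, 2.42, 6.08 and 3.00 FPKM in OVE918. OVE853 lay within the WT range and OVE918 below it. Its log2 fold change was -0.02 ± 0.30 (FDR 0.975) for OVE853 and -1.76 ± 0.28 (FDR 0.00175) for OVE918. Col11a1 (chr3:113824134-114014367, plus strand), a type XI chain, had 7.23, 3.91 and 1.90 FPKM in WT, 2.15, 2.27 and 2.54 FPKM in OVE853 and 0.882, 0.748, 1.08 and 0.508 FPKM in OVE918. It was reduced in OVE918 (-2.43 ± 0.40, FDR 0.00231), and the OVE853 value of -0.90 ± 0.41 (FDR 0.152) became -1.26 (FDR 0.0143) without WT replicate 3.

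The summed markers of the non-pigmented ciliary epithelium, the tissue next to the lens equator, were also lower in both lines. The 7 markers in the table (Best2, Slc6a13, Wfdc1, Optc, Opcml, Zic1 and Zic2), of a list of 8, summed to 643.4 to 1148 CPM in WT, 240.7 to 299.9 CPM in OVE853 and 59.3 to 130.9 CPM in OVE918. Optc was the largest part of this sum in WT, with 388.4 to 872.6 CPM, while Opcml overlapped between WT and both lines. None of the 7 was at 0 throughout a group. Of the 6 that entered the test 5 were reduced in OVE853 and 6 in OVE918, against 1.91% and 3.01% of all genes. Best2, Slc6a13, Zic1 and Zic2 reached 2 FPKM in 0 OVE918 libraries and so entered the test through groups where they were higher. The list was also chosen with earlier results of these data known, so these counts are a description only. The part of these markers in the fall of Col18a1, Col23a1, Col2a1, Col11a1 and type IX was not tested. Pigmented epithelium markers summed to 105.1 to 187.1 CPM in WT, 39.7 to 82.5 CPM in OVE853 and 40.7 to 75.6 CPM in OVE918, and most of this difference lay in Oca2, with 42.9 to 73.7 CPM in WT and 0.483 to 3.82 CPM in the lines. Rpe65 was also lower in every transgenic library (0.0372 to 0.851 CPM) than in WT (1.31 to 15.3 CPM), while Tyrp1, Dct, Pmel, Tyr, Mlana and Slc45a2 overlapped WT. Corneal markers, nearly all Aldh3a1, summed to 239.5 to 1630 CPM in WT, 64.9 to 95.6 CPM in OVE853 and 27.3 to 82.6 CPM in OVE918. Their part was not tested either.

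**Figure D5:**
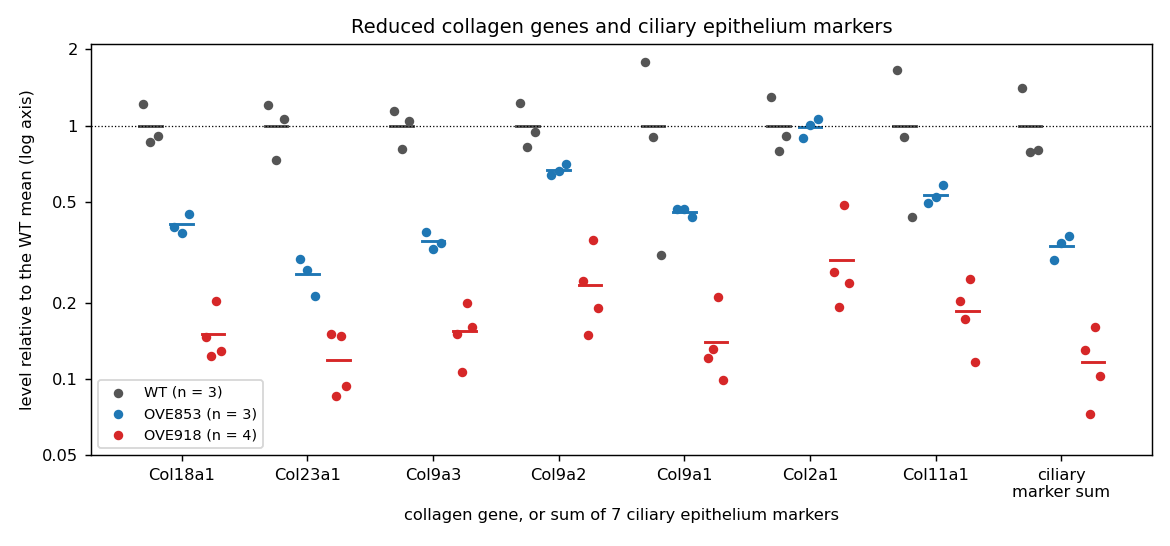
FPKM of the 7 collagen genes reduced in at least 1 line, and the summed CPM of 7 markers of the non-pigmented ciliary epithelium, each divided by its WT mean (log axis). Points are libraries (WT n = 3, OVE853 n = 3, OVE918 n = 4) and bars are group means. OVE918 is lowest for every gene and for the marker sum, and OVE853 lies within the WT range for Col2a1, Col9a1 and Col11a1.

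The lines were also compared with each other. Relative to OVE853, 5 collagen genes were reduced and 0 were elevated in OVE918, against 0.415% and 0.0721% of all genes. They were Col18a1 (log2 fold change -1.44 ± 0.18, FDR 0.00966), Col2a1 (-1.74 ± 0.28, FDR 0.0260), Col9a2 (-1.51 ± 0.25, FDR 0.0250), Col9a3 (-1.19 ± 0.19, FDR 0.0243) and Col23a1 (-1.13 ± 0.23, FDR 0.0485). In all, 14 of the 22 tested collagen genes had OVE918 libraries that lay below every OVE853 library, against 16.2% of all genes, and 0 had libraries above, against 13.4%. These calls rest on few libraries. Without OVE853 replicate 1 or 3 in the fit 0 collagen genes passed, when 5 of 10924 and 6 of 10911 genes were reduced. Without OVE853 replicate 2, OVE918 replicate 1 or OVE918 replicate 4 only 1 passed, against 9 of 10941, 12 of 11025 and 10 of 11005. The direction of all 5 values held in these fits. Without WT replicate 3, 7 were reduced, against 68 of 10952 genes, with Col9a1 and Col11a1 added. None of the elevated genes was shown to differ between the lines: Col1a1 was at 0.37 ± 0.48 (FDR 0.652), Col5a3 at 0.41 ± 0.28 (FDR 0.389), Col27a1 at -0.45 ± 0.16 (FDR 0.140), Col6a3 at -0.62 ± 0.27 (FDR 0.209) and Col5a1 at -0.29 ± 0.23 (FDR 0.458). Col1a2 was at -1.12 ± 0.41 (FDR 0.161), with all OVE918 libraries below OVE853.

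Promoter windows are printed for 3 elevated and 2 reduced genes, a part of those that RefSeq covers, so that their sequence can be read beside the opposite changes. They lie on GRCm38.p6 at chr9:20815018-20815317 (Col5a3, minus strand), chr4:63215162-63215461 (Col27a1, plus strand), chr1:90843922-90844221 (Col6a3, minus strand), chr11:51289670-51289969 (Col23a1, plus strand) and chr4:121039316-121039615 (Col9a2, plus strand), and capitals mark CAGAC, the core letters of a SMAD-binding element, or its reverse complement GTCTG:
Col5a3: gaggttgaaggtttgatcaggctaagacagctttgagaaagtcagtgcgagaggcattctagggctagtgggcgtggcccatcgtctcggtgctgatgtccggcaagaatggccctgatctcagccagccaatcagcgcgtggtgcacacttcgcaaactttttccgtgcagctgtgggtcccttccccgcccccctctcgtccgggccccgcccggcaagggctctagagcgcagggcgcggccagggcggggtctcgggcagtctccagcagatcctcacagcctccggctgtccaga
Col27a1: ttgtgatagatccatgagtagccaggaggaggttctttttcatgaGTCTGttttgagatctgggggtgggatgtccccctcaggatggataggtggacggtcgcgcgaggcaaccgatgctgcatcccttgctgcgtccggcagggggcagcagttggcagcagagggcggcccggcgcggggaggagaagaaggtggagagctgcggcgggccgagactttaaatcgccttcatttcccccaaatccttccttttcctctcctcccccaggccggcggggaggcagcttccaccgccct
Col6a3: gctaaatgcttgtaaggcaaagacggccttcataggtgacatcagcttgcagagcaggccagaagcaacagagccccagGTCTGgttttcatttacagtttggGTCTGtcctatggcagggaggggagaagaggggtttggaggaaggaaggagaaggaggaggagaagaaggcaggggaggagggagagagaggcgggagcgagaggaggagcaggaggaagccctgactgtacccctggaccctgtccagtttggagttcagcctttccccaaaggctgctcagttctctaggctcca
Col23a1: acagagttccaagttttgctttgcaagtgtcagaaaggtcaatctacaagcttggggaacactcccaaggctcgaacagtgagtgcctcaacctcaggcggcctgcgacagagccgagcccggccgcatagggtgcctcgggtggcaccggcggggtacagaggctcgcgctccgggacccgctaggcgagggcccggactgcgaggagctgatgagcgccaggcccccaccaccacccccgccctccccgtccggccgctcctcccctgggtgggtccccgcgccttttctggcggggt
Col9a2: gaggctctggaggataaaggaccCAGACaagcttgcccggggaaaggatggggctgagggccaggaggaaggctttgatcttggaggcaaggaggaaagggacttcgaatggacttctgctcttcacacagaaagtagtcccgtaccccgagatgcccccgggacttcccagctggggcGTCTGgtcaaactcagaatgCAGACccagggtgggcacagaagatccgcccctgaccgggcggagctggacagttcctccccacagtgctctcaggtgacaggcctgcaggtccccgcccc

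The elevated Col5a3 and the reduced Col23a1 had 0 matches, Col27a1 had 1, Col6a3 had 2 and the reduced Col9a2 had 3. Among the DEGs whose windows are not printed, the elevated Col5a1 had 1 and the reduced Col11a1 had 1. The reduced Col18a1 had 1 and 0 and the reduced Col9a1 had 0 and 2, each with more than 1 window. Over all 32851 RefSeq windows of this length, 49.6% held CAGAC on either strand, and 20 of the 38 windows of 35 collagen genes did (52.6%). GGGCGG, the letters of a GC box, was in 35.7% of all windows and in 23 of the 38 collagen windows (60.5%), with 3 matches in Col5a3, 2 in Col27a1, 1 in Col23a1, 3 in Col9a2 and 0 in Col6a3. CCAAT was in 37.4% of all windows and in 13 collagen windows (34.2%). Each motif was searched on both strands and counted by itself, with overlaps between motifs allowed. The table has no window for Col1a1, Col2a1, Col4a3, Col5a2, Col9a3, Col12a1, Col14a1, Col22a1 and Col26a1. A match describes letters in a window of the reference strain and nothing more.

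Of the 22 collagen genes under the FPKM minimum, 14 reached at most 0.5 FPKM in every library. With edgeR's own count-based filter (filterByExpr), 37 collagen genes entered the test, and 7 were elevated and 4 reduced in OVE853, against 3.17% and 3.72% of all genes, and 8 each in OVE918, against 3.45% and 5.34%. Among the genes this filter adds, Col12a1, a FACIT collagen of tissues under strain, had 34, 44 and 133 counts in WT, 257, 204 and 328 counts in OVE853 and 266, 209, 522 and 347 counts in OVE918. It was elevated in OVE853 (log2 fold change 1.75 ± 0.45, FDR 0.0314) and in OVE918 (2.40 ± 0.44, FDR 0.00461), and without WT replicate 3, its highest WT library, the Col12a1 values were 2.42 (FDR 0.00324) and 3.08 (FDR 3.70e-04). Col5a2 had 88, 74 and 58 counts in WT, 248, 188 and 245 counts in OVE853 and 144, 229, 292 and 315 counts in OVE918. Its log2 fold changes were 1.38 ± 0.33 (FDR 0.0208) and 1.80 ± 0.31 (FDR 0.00290), and in OVE853 it no longer passed without WT replicate 3 (1.13, FDR 0.05002). Col20a1, a FACIT collagen, reached 2 FPKM before TMM scaling in 4 libraries and lay above WT in every library of both lines. Its values of 0.65 ± 0.19 (FDR 0.0450) and 0.63 ± 0.18 (FDR 0.0341) were under the 2-fold minimum. Without WT replicate 3 the Col20a1 values were 0.68 (FDR 0.0706) and 0.69 (FDR 0.0467).

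Col6a2 was reduced under the same filter, by -2.10 ± 0.38 in OVE853 (FDR 0.00780) and -2.30 ± 0.35 in OVE918 (FDR 0.00167), and without WT replicate 3, its highest library, by -1.58 and -1.75, which still passed. Col7a1, which forms anchoring fibrils, was elevated in OVE918 (1.26 ± 0.25, FDR 0.00599) from 52, 73 and 107 counts in WT to 144, 133, 239 and 171 counts. Col26a1 had 1, 2 and 0 counts in WT, 5, 4 and 9 in OVE853 and 27, 32, 35 and 27 in OVE918, and no fold against WT is given for so few counts. It was the single collagen gene elevated in OVE918 relative to OVE853 under this filter (FDR 0.0474, with 0.0498% of all genes elevated). Col26a1 entered this test through the OVE918 libraries, the group in which it was high. The 7 genes Col10a1, Col19a1, Col24a1, Col28a1, Col6a4, Col6a5 and Col6a6 did not enter the test with this filter either and reached at most 0.0785 FPKM.

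Genes that make, cross-link and bind collagen were read from 3 lists. Of 19 genes for collagen biosynthesis, all of which were tested, 1 was elevated in each line (2.51% and 2.58% of all genes in OVE853 and OVE918) and 0 were reduced (1.91% and 3.01% of all genes), with a median log2 fold change of 0.44 in OVE853 and 0.30 in OVE918. The elevated gene was P3h2, a prolyl 3-hydroxylase that acts on type IV collagen among others, which had 14.0, 11.4 and 3.18 FPKM in WT, 33.4, 44.7 and 39.9 FPKM in OVE853 and 25.1, 36.5, 28.8 and 25.9 FPKM in OVE918. Every transgenic library was above WT, and its log2 fold change was 2.04 ± 0.44 (FDR 0.0161) and 1.61 ± 0.42 (FDR 0.0268). Without WT replicate 3 the P3h2 values were 1.62 and 1.19 and still passed, whereas the FDR limit was missed in OVE853 without OVE853 replicate 3 (FDR 0.0515) and in OVE918 without WT replicate 2, OVE918 replicate 2 or OVE918 replicate 3 (FDR 0.0515 to 0.0604). By the FDR alone, 8 of these genes were higher and 2 lower in OVE853, against 8.10% and 7.68% of all genes, and 6 and 2 in OVE918, against 8.00% and 11.0%. Among them Plod3, a lysyl hydroxylase, was at 0.69 ± 0.16 and 0.58 ± 0.15, and Colgalt2, a collagen galactosyltransferase, at -0.67 ± 0.12 and -0.78 ± 0.11.

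Of 14 genes for processing and cross-linking, 7 were tested and 1 was elevated in each line, with medians of 0.68 and 0.39 and the same shares of all genes as above. It was Tgm2, a transglutaminase that cross-links matrix proteins, with 0.659, 0.673 and 1.96 FPKM in WT, 4.36, 2.92 and 5.01 FPKM in OVE853 and 5.96, 5.36, 6.68 and 7.70 FPKM in OVE918 (log2 fold change 1.89 ± 0.38, FDR 0.0103, and 2.53 ± 0.38, FDR 0.00108). Tgm2 reached 2 FPKM in no WT library and so entered the test through the transgenic libraries, and without WT replicate 3 its values were 2.62 and 3.27. Bmp1, the protease that trims procollagen, was at 0.86 ± 0.14 (FDR 0.00326) and 0.91 ± 0.14 (FDR 9.83e-04), under the 2-fold minimum. The lysyl oxidase gene Lox stayed at or under 1.07 FPKM.

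Of 17 genes for collagen receptors and turnover, 7 were tested. Of these, 2 were elevated in each line, against 2.51% of all genes in OVE853 and 2.58% in OVE918. In OVE918 1 was reduced, against 3.01% of all genes. Itga2, the alpha subunit of a collagen-binding integrin, was elevated in both lines (log2 fold change 1.64 ± 0.30, FDR 0.00597, and 2.13 ± 0.29, FDR 6.16e-04), from 0.395 to 0.950 FPKM in WT to 1.70 to 3.58 FPKM over both lines. It too entered the test only through transgenic libraries, 5 of which reached 2 FPKM. Mmp2, a gelatinase that also cuts type IV collagen, was elevated in both (1.40 ± 0.33, FDR 0.0179, and 1.86 ± 0.32, FDR 0.00244), but Mmp2 missed the FDR limit in OVE853 without OVE853 replicate 1 or 3 (FDR 0.0570 and 0.0732). Ddr2, a receptor for fibrillar collagen, had 4.22, 4.90 and 5.42 FPKM in WT, 2.59, 3.02 and 3.51 FPKM in OVE853 and 1.32, 1.3, 1.45 and 0.596 FPKM in OVE918. It reached 2 FPKM in 0 OVE918 libraries and so entered the test through the WT and OVE853 libraries, where it was higher. It was reduced in OVE918 (-2.05 ± 0.25, FDR 2.55e-04) and relative to OVE853 (-1.38 ± 0.24, FDR 0.0354, missed without WT replicate 2, OVE918 replicate 1 or any one OVE853 library), and it did not pass in OVE853 (-0.67 ± 0.26, FDR 0.0985).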

How the data were processed

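RNA-seq libraries of paired 150 bp reads were made from 10 pools of lens epithelium. After trimming with Cutadapt 5.2 and alignment to GRCm39 with STAR 2.7.11b, the authors assigned read pairs to RefSeq genes by strand with featureCounts 2.0.8. They deposited the counts without normalization.

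The analysis used edgeR 4.0.16 in R 4.3.3 (TMM factors, robust quasi-likelihood fit of 3 groups, Benjamini-Hochberg adjustment within each of 3 contrasts), limma 3.58.1 and DESeq2 1.42.0. DEGs had to pass an FDR of 0.05 and an absolute log2 fold change of 1. Genes needed 2 FPKM in 5 of 10 libraries, with total counts as library sizes for this filter. The printed FPKM used TMM-scaled library sizes. Both used GENCODE vM39 exon lengths (Primary transcripts) found by symbol for 43252 genes and by synonym for 22, and genes with no length (7489) did not enter. SEs were taken from the log2 fold change and its F statistic. Library totals and the spread between pools limit precision, and shares of counts cover counting error only. The steps were tested on simulated data.

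The collagen members and all lists were chosen with earlier results of these data known. Values are named for DEGs, for the 2 most abundant members of each class and for partner chains. Alternatives were DESeq2, upper-quartile factors, other filters, other designs, other exon lengths and leaving out each library, and filterByExpr without WT replicate 3 was added after seeing the data.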

Additional observations from a re-analysis of the deposited data

Results flagged for a closer look

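Col8a2 in OVE918 was flagged because 1 of the 4 libraries lay far from the others: OVE918 replicate 3 had 7.44 FPKM, and its gap to the next library, at 8.72 FPKM, was 0.879 of the whole range, over Dixon's critical value for 4 samples. Chance flags about 1 in 20 such groups, and this was 1 of 22 collagen genes looked at.

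For 5 collagen genes the level differed between the lines in the contrast of OVE918 with OVE853 in edgeR. Their log2 differences were -1.44 for Col18a1 (FDR 0.00966), -1.13 for Col23a1 (FDR 0.0485), -1.74 for Col2a1 (FDR 0.0260), -1.51 for Col9a2 (FDR 0.0250) and -1.19 for Col9a3 (FDR 0.0243), with every OVE918 library below every OVE853 library for each gene. In this contrast 0 collagen genes passed without OVE853 replicate 1 or 3 in the fit, where 5 and 6 of all genes were reduced. Only 1 passed without OVE853 replicate 2, OVE918 replicate 1 or OVE918 replicate 4, where 9, 12 and 10 of all genes were reduced. The sum of the ciliary epithelium markers was also lower in OVE918 (59.3 to 130.9 CPM) than in OVE853 (240.7 to 299.9 CPM), and its part in these 5 differences was not tested.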

How the results depend on the processing

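Of the 24 calls of a collagen gene in a contrast, 15 stayed past both limits under every alternative in which the gene was tested, and 0 changed direction. They include Col5a3, Col27a1, Col18a1, Col23a1 and Col9a3 in both lines against WT, whereas Col1a1 in OVE853 missed the FDR limit with filterByExpr and without WT replicate 3 (FDR 0.0662), a setting chosen after seeing the data. Col5a1 in OVE853 was the least stable call against WT and held in 11 of 21 alternatives (log2 fold change 0.69 to 1.27). With FDR alone, 8 collagen genes were elevated in OVE853, against 8.10% of all genes. Collagen genes elevated in OVE918 numbered 8 with filterByExpr, 7 with no low-expression filter and 7 with filterByExpr without WT replicate 3. Among all genes these settings gave 623 of 18058, 603 of 31082 and 623 of 18455. Collagen genes elevated in OVE918 relative to OVE853 numbered 1, 1 and 1, against 9, 13 and 62 of all genes. These filters test more genes than the main one. With the last of these settings 6 collagen genes were reduced in OVE853, against 407 of 18455 genes. Leaving out 1 library at a time gave 3 to 5 collagen genes reduced in OVE853, with 5 without WT replicate 3, against 123 of 10952 genes. It gave 0 to 7 reduced in OVE918 relative to OVE853. The 0 came without OVE853 replicate 1 or 3 (5 of 10924 and 6 of 10911 genes). The 7 came without WT replicate 3 (68 of 10952 genes). The count reduced relative to OVE853 was 2 with no low-expression filter (46 of 31082 genes). It was 3 with the library-name number in the model (28 of 11094 genes). Exon lengths of all transcripts moved the basement membrane share of collagen FPKM in OVE853 from 93.95% to 94.9%, more than the spread between replicates, because the lengths differ. DESeq2 called 4 elevated and 3 reduced collagen genes in OVE853, against 302 and 246 of 11094 genes. In OVE918 it called 4 and 7, against 325 and 361 genes.

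The replicate numbers of the labels did not pair the libraries: over 9 pairs with the same number the correlation of deviations from the group means was -0.30 to 0.08. With the replicate block 2 collagen genes were reduced in OVE918 relative to OVE853, against 25 of 11094 genes. In OVE853 4 were elevated and 3 reduced, against 273 and 168 genes. In OVE918 4 were elevated and 6 reduced, against 250 and 288 genes, and Col9a1 had an FDR of 0.0779. Depth limits the 7 collagen genes that were tested only with no low-expression filter.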
